A study of Homo sapiens with 8 samples.

Results

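The genes described here are the core of the NF-κB system: 4 genes of DNA-binding subunits (NFKB1, NFKB2, RELA and RELB), 3 genes of IκB proteins (NFKBIA, NFKBIE and NFKBIZ), and TNFAIP3, TNIP1 and BIRC3, which encode regulators of the ubiquitin chains that carry the signal. They were taken by name, as the rows of the array table that carry that single gene symbol. The set was chosen with earlier results of these data known. Of the 10 genes planned, 9 had such a row, 1 row each, among 22109 genes tested; BIRC3 had none and was not analysed here. The cells were MDA-MB-231, an established triple-negative human breast cancer line of mesenchymal character, grown in serum-supplemented high-glucose medium. Their total RNA went onto 8 Affymetrix GeneChip Human Gene 2.1 ST arrays, 1 for each sample: 3 controls labelled as having had no treatment, 3 samples of a low-dose group and 2 samples of a high-dose group, harvested after 24 h. The titles and the treatment protocol give the agent as an ethanol-dissolved wild yam (Dioscorea villosa) root extract at 15 µg/mL (low) and 30 µg/mL (high), doses described as sublethal. The source name and treatment fields disagree: there the low samples carry Boswellia serrata extract (128 µg/mL), and the high samples the pure compound 3-O-Acetyl-β-boswellic acid (46 µg/mL). The 3 groups hold the same arrays by either label, but the agent itself is not settled, and "low" and "high" serve below as group names. The labels name no ethanol control, so an effect of the solvent and one of the extract cannot be told apart. They do not say that replicates were separate cultures, so p-values measure only the spread between these samples, which may be technical.

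NF-κB is a family of dimeric transcription factors that in resting cells are held in the cytoplasm by IκB proteins. Signals from cytokine and innate immune receptors activate the IκB kinase, IκB is degraded, and the freed dimers move to the nucleus and bind κB sites. Among the genes they switch on are those of their own inhibitors, which makes the response self-limiting: IκBα (NFKBIA) recaptures the dimers, and A20 (TNFAIP3), helped by its partner ABIN1 (TNIP1), edits ubiquitin chains upstream of the kinase. MDA-MB-231 is known as a line with constitutive NF-κB activity.

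Promoter sequences of these genes, searched for a κB pattern, are given first because the genes with the clearest differences in level, TNFAIP3 and NFKBIA, are known textbook targets of the factor. The RefSeq table (GRCh38.p14) held 13 windows, each from 250 bases before to 50 after a listed transcription start, for 7 of the 9 measured genes. It was searched on both strands for the 10-letter κB pattern GGGNNTTNCC, where N is any base. The pattern occurred in 6 of those 7 genes (NFKB1, NFKB2, NFKBIA, NFKBIZ, TNFAIP3 and TNIP1), and in 8 of their 13 windows. It occurred in 5.68% of all 35116 windows of that length in the table, and in at least 1 window of 6.85% of all genes there. This spelling was picked after 7 κB spellings and 1 of AP-1 had been tried on these windows. The 6 κB spellings not used, found in 1.40% to 20.1% of all windows, matched the same 6 genes, and the AP-1 spelling, found in 4.95%, matched none of the 7. A match is a description of letters, not a measured binding site. Below, capitals mark every match; where a match lies on the opposite strand, as in TNFAIP3 and NFKBIA, the capitals read as its reverse complement.
TNFAIP3 promoter, chr6:137867009-137867308, plus strand: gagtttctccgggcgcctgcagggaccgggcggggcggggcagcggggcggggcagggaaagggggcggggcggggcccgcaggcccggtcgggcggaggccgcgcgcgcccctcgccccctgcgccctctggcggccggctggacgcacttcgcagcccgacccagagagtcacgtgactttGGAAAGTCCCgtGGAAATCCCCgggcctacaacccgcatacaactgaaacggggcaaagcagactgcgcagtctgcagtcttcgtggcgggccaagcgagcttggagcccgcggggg
NFKBIA promoter, chr14:35404700-35404999, minus strand: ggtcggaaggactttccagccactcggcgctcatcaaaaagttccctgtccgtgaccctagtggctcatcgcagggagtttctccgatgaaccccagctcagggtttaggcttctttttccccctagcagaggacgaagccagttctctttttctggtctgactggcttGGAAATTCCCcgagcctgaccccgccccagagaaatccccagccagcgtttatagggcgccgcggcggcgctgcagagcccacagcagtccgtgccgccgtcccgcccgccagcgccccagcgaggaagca
NFKB2 promoter, chr10:102394328-102394627, plus strand: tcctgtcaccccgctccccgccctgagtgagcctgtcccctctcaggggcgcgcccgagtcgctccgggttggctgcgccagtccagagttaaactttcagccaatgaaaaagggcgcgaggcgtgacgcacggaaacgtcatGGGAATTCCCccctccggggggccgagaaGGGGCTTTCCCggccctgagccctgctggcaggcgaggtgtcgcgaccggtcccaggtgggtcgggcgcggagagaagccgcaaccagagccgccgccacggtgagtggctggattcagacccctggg
RELA promoter, chr11:65663808-65664107, minus strand: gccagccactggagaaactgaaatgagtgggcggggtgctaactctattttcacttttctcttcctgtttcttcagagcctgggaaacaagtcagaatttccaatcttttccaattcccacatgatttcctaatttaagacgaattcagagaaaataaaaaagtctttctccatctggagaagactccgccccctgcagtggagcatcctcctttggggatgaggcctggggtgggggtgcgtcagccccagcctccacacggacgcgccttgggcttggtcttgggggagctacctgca

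In TNFAIP3 a pair of matches began 67 and 55 bases before the start, separated by only a few bases. NFKBIA held 1 match, 81 bases before the start. In NFKB2 the match 107 bases before the start is the palindrome GGGAATTCCC, which counts on both strands, and 2 overlapping matches began 78 and 77 bases before the start. A later NFKB2 start held 2 further matches (176 and 21 bases before it), a later NFKBIZ start held 1 (239 bases before it), and the earliest listed NFKB2 start held none. Neither of the 2 RELA windows held the pattern, which says only that these letters are absent there. The matches at NFKB1 (49 bases before its start), TNIP1 (42 bases) and NFKBIZ (223 bases) are shown with 10 bases on each side, to compare with those above; their coordinates are those of the capitals.
NFKB1 site, chr4:102501310-102501319, plus strand: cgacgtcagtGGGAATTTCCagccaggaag
TNIP1 site, chr5:151081067-151081076, minus strand: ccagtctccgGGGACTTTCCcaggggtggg
NFKBIZ site, chr3:101827767-101827776, plus strand: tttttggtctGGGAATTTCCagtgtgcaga

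Before the levels, some facts bear on all arrays. Levels are log2 values as deposited, a difference of 1 being a 2-fold difference, and levels of different genes are not set against each other. Control 3, low 3 and high 2 stood apart, with 75th percentiles over genes of 4.73, 4.54 and 4.54 against 4.80 to 4.94 on the other arrays. High 1 was the lowest of those others, at 4.80, and its median over genes was 2.71. Medians were 2.72 in control 3, 2.69 in low 3 and 2.68 in high 2, and 2.82 to 2.83 on the remaining arrays. Both high arrays thus had medians below all 3 controls. Scale and treatment cannot be told apart in that group. Low minus control called 264 genes higher and 400 lower at an adjusted p under 0.05. The counts were 376 and 495 with array medians subtracted, 621 and 557 with quantile normalization, and 459 and 370 with each array's 75th percentile subtracted. High minus control called 94 higher and 86 lower, against 327 and 135 with quantile normalization, 179 and 104 with array medians subtracted and 230 and 61 with 75th percentiles subtracted. The median over all genes was -0.12 in high minus control and 0.07 when 75th percentiles were subtracted. All 7 genes known to be high in MDA-MB-231, such as VIM and CD44, had mean levels over the 8 arrays between 7.03 and 10.15. ESR1 and PGR, the receptors a triple-negative line lacks, averaged 1.89 and 1.49 in controls. Of 7 genes listed as low or absent in the line, 3 were at or above the median gene, with control means of 5.16 (EPCAM), 3.17 (GATA3) and 3.01 (CDH1). Of 8 leukocyte, 5 fibroblast and 4 endothelial markers measured, only the fibroblast collagen gene COL1A1 was called in low minus control, against 3% of all genes. COL1A1 lay at 3.91 to 4.12 in low arrays against 3.16 to 3.44 in controls. In each of these lists 1 gene was at or above the median gene. Their control means were 8.10 (CD68, leukocytes), 3.28 (COL1A1) and 3.19 (KDR, endothelium). Over the 5 fibroblast markers the mean level was 2.04 to 2.38 in control arrays, 2.28 to 2.34 in low arrays and 1.89 to 2.05 in high arrays. For the 4 endothelial markers the ranges were 2.00 to 2.58, 2.18 to 2.23 and 2.08 to 2.14. The 8 leukocyte markers averaged 2.52 to 2.64 in control, 2.66 to 2.85 in low and 2.58 to 2.65 in high arrays. All 8 were above 0 in low minus control (median 0.16), against 42.6% of all genes, and 4 in high minus control. None of the 8 had an unadjusted p under 0.05 there. The part of these markers in the results below was not tested.

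TNFAIP3 and NFKBIA, both feedback inhibitors, rose in both treated groups, and no other measured gene of the 9 passed the test in either. TNFAIP3 was 4.42-fold higher in low than in control cells and 4.35-fold higher in high than in control cells. NFKBIA was 2.67-fold and 2.27-fold higher. Its call in high minus control lay at the threshold (limma, adjusted p = 0.0490) and held in 11 of the 18 alternative settings below. The 2 genes called of 9 compare with a background of 1.19% of all genes called higher in low minus control and 0.425% in high minus control. None of the 9 was called lower, where the background was 1.81% and 0.389%. Because the set was chosen with earlier results of these arrays known, these counts are no independent evidence.

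**Figure D1:**
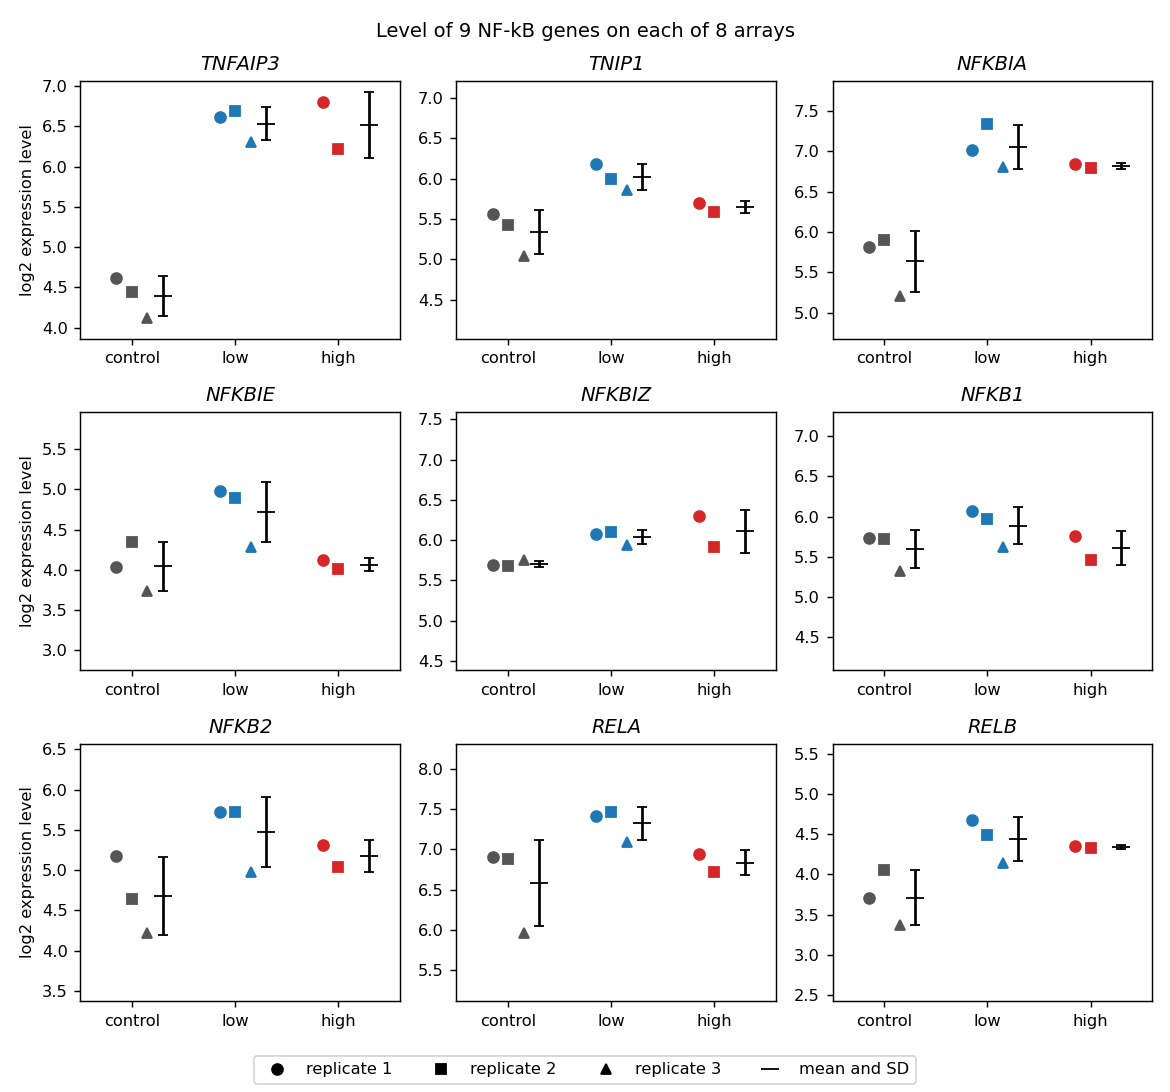
Log2 expression level (y axis, each panel spanning the same number of log2 units) of 9 NF-κB genes on 3 control, 3 low and 2 high arrays. Symbols mark the replicate number and the bar the mean and SD; TNFAIP3 and NFKBIA stand clear of the controls in both treated groups, and the replicate 3 arrays of control and low lie lowest in most panels.

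TNFAIP3 encodes A20, the ubiquitin-editing enzyme that shuts off signalling above the IκB kinase (chr6:137866349-137883312, probe set 17012946). Its log2 level was 4.62, 4.44 and 4.12 in controls, 6.61, 6.69 and 6.30 in low arrays, and 6.80 and 6.22 in high arrays. Every treated array lay above every control by a wide margin, and the low and high arrays overlapped. The difference of low minus control was 2.14 ± 0.20 (SE; limma, adjusted p = 0.000781). High minus control was 2.12 ± 0.23 (adjusted p = 0.00262). By p-value it ranked 12th among all genes in each of these comparisons. High minus low was -0.02, with a 95% interval of -0.52 to 0.48. The call in low minus control held in all 19 alternative settings, with differences of 2.01 to 2.26. In high minus control it held in 17 of 18 and missed the threshold without high 1 (1.83, adjusted p = 0.0514), where 1 high array is left and is assumed to vary like the other groups.

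TNIP1 encodes ABIN1, which binds A20 and ubiquitin chains (chr5:151029943-151087685, probe set 17001763). Its level was 5.56, 5.43 and 5.04 in controls, 6.19, 6.003 and 5.86 in low arrays and 5.70 and 5.59 in high arrays. The 3 groups did not overlap, with the low arrays highest and the high arrays just above the controls. Low minus control was 0.68 ± 0.18 and missed the threshold (limma, adjusted p = 0.0688). The titles number the replicates and state no pairing. With these numbers as a replicate block in the fit to all arrays, the adjusted p was 0.0244 (limma). With the block over control and low arrays alone it was 0.0566, so TNIP1 was not called there. High minus control was 0.31 ± 0.20 (adjusted p = 0.504), and 0.16 without control 3.

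Among the IκB genes NFKBIA, which encodes IκBα, the inhibitor that is degraded and remade in each round of signalling, was the one that passed (chr14:35401513-35404749, probe set 16791991). Its level was 5.81, 5.90 and 5.20 in controls, 7.01, 7.35 and 6.81 in low arrays and 6.84 and 6.80 in high arrays. Again no treated array fell within the range of the controls. Low minus control was 1.42 ± 0.21 (limma, adjusted p = 0.00537) and was called in all 19 alternatives, between 1.20 and 1.55. High minus control was 1.18 ± 0.24, and its adjusted p of 0.0490 lay at the threshold. That call ended in 7 of 18 alternatives: without control 1 (adjusted p = 0.113), control 2 (0.0846), low 1 (0.0942), low 2 (0.0713), high 1 (0.186) or high 2 (0.272), and in a fit to the control and high arrays alone (0.118). The difference itself stayed between 0.97 and 1.39 in those 18 settings.

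NFKBIE encodes IκBε, a slower inhibitor of the same dimers (chr6:44258166-44265551, probe set 17019565). Its level was 4.04, 4.35 and 3.74 in controls, 4.97, 4.90 and 4.29 in low arrays and 4.12 and 4.01 in high arrays. Low 1 and low 2 lay above all other arrays, low 3 fell within the controls' range, and so did both high arrays. The difference of low minus control was 0.68 ± 0.22 (limma, adjusted p = 0.149, or 0.0345 with the replicate block). With the block over control and low arrays alone it was not called (limma, adjusted p = 0.0693). High minus control was 0.02 ± 0.24. High minus low was -0.66 ± 0.24, the largest gap between the treated groups among the 9 genes, with an interval of -1.19 to -0.12. It did not pass over all genes (limma, adjusted p = 0.497).

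NFKBIZ encodes IκBζ, an atypical nuclear IκB that acts with NF-κB on secondary response genes (chr3:101827990-101861022, probe set 16943467). Its level was 5.69, 5.68 and 5.75 in controls, 6.08, 6.10 and 5.94 in low arrays and 6.30 and 5.92 in high arrays. All treated arrays lay above the controls, whose spread was small (SD 0.04, n = 3). The differences were 0.33 ± 0.15 for low minus control (limma, adjusted p = 0.366) and 0.40 ± 0.17 for high minus control (adjusted p = 0.311), so neither passed. For high minus control the value was 0.22 without high 1, and 0.62 without control 3, low 3 and high 2. Each of these fits leaves 1 high array, which has no spread of its own.

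**Figure D2:**
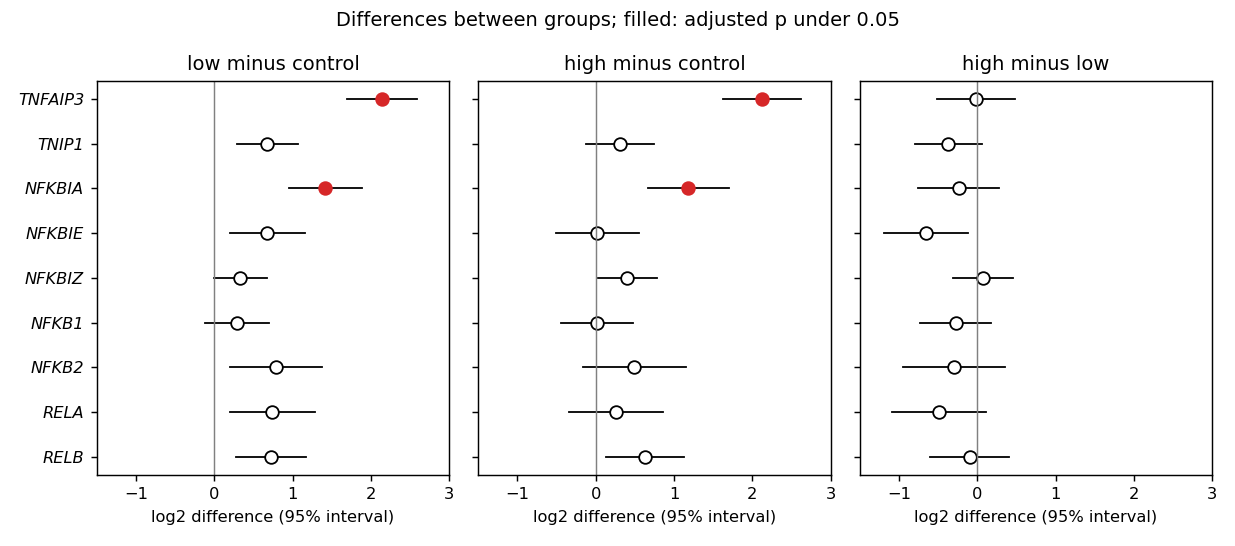
Log2 difference between groups for the 9 genes, with the 95% interval of limma's fit (x axis) for low minus control, high minus control and high minus low. Filled points have an adjusted p under 0.05 over all genes: TNFAIP3 and NFKBIA in the left and middle panels, none in the right panel.

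None of the 4 subunit genes passed in either treated group in limma, while 3 in low minus control and 1 in high minus control, all higher, had an unadjusted p under 0.05, as had 5.38% and 3.03% of all genes in that direction. Their low minus control differences ran from 0.29 to 0.79, with a median of 0.73, and their high minus control differences from 0.02 to 0.63, with a median of 0.37. Over all genes the medians were -0.04 and -0.12. The 3 subunit genes with an unadjusted p under 0.05 in low minus control, NFKB2, RELA and RELB, were called there with the replicate block. None of them was called with the block over control and low arrays alone (limma, adjusted p = 0.0547, 0.0770 and 0.0679).

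RELB encodes the subunit that pairs with p52 in the slower, non-canonical branch (chr19:45001464-45038192, probe set 16863168). Its level was 3.70, 4.06 and 3.37 in controls, 4.68, 4.49 and 4.14 in low arrays and 4.36 and 4.32 in high arrays. All 5 treated arrays lay above the controls, low 3 only just. Against control the low arrays differed by 0.72 ± 0.20 (limma, adjusted p = 0.0958, or 0.0277 with the replicate block). The high arrays differed from control by 0.63 ± 0.23 (limma, adjusted p = 0.242). Of 18 alternatives only 1, quantile normalization, called RELB in high minus control (limma, adjusted p = 0.0445).

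NFKB2 encodes p100, the precursor of p52, which as p100 also restrains RelB (chr10:102394110-102402529, probe set 16708623). Its level was 5.18, 4.64 and 4.22 in controls, 5.72, 5.72 and 4.97 in low arrays and 5.31 and 5.03 in high arrays. The controls spread widely (SD 0.48, n = 3), and control 1 lay above low 3 and high 2. The low arrays differed from control by 0.79 ± 0.27 (limma, adjusted p = 0.174, or 0.0189 with the replicate block) and the high arrays by 0.49 ± 0.30 (adjusted p = 0.479). Without control 1 the high minus control difference was 0.74, and without control 3 it was 0.27.

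RELA encodes p65, the subunit that carries the main activation domain (chr11:65653601-65663857, probe set 16740495). Its level was 6.90, 6.88 and 5.96 in controls, 7.42, 7.47 and 7.09 in low arrays and 6.95 and 6.73 in high arrays. Control 3 lay far below all other arrays, high 1 just above the other controls and high 2 within the controls' range. Low minus control was 0.74 ± 0.25 (limma, adjusted p = 0.164, or 0.0340 with the replicate block). Without control 3 the difference was 0.43. For high minus control the values were 0.25, and -0.06 without control 3.

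NFKB1 encodes p105, the precursor of p50 (chr4:102501359-102617302, probe set 16969300). Its level was 5.74, 5.73 and 5.32 in controls, 6.07, 5.96 and 5.62 in low arrays and 5.76 and 5.46 in high arrays. All 3 groups overlapped. Low minus control was 0.29 ± 0.18 (limma, adjusted p = 0.557), and 0.15 without control 3. High minus control was 0.02 ± 0.21, with an interval of -0.44 to 0.47.

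As a set the 9 genes leaned one way against the controls. The set was chosen with earlier results of these arrays known, so the counts in this paragraph are no independent evidence. All 9 differences were above 0 in low minus control (median 0.72), against 42.6% of all genes, and all 9 in high minus control (median 0.40), against 32.6%. They kept that sign under each of the 3 other scalings of the arrays. In high minus control 1 to 3 of the small ones fell below 0 with array weights, with the replicate block, without control 3, without high 1, or without control 3, low 3 and high 2 together. Arrays of low and control did not overlap in 6 of the 9 genes, all of them higher in low, where the background was 7.03% of all genes, and none lower (background 13%). Arrays of high and control did not overlap in 5 of the 9, again all higher in high, with a background of 7.07%, and none lower (22.9%). The number called in low minus control depended on the setting: it was 7 of 9 instead of 2 with the replicate number as a block and with array weights, 6 with quantile normalization, and 2 in fits to the control and low arrays alone, with or without the block.

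**Figure D3:**
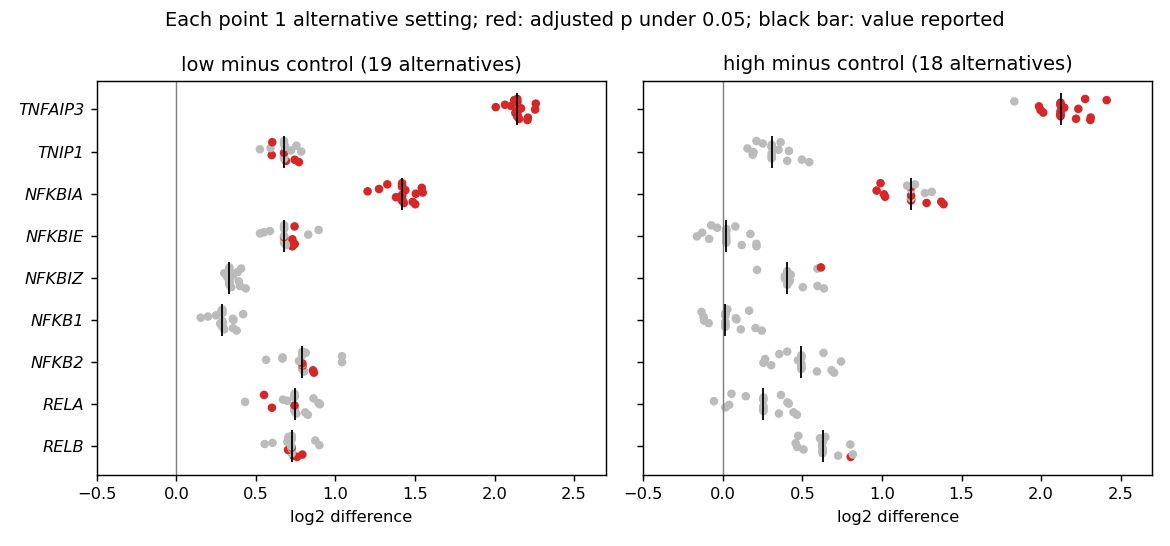
Log2 difference of the 9 genes under each alternative setting (1 point each; red where the adjusted p is under 0.05) for low minus control, 19 settings, and high minus control, 18 settings. The black bar is the value reported; TNFAIP3 is red in 19 of 19 and 17 of 18 settings and NFKBIA in 19 of 19 and 11 of 18.

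The direct comparison of high with low called none of the 9 genes, with a background of 0.00452% of all genes called higher and 0% lower. At an unadjusted p under 0.05 there was 1, NFKBIE, lower in high, as were 6.1% of all genes, and none was higher (2.56%). High was below low in 8 of them, with a median of -0.27, NFKBIZ being the exception at 0.07. The whole table leaned the same way, with a median of -0.07 and 38.4% of genes above 0. RELA, NFKBIE and TNIP1 had both high arrays below all low arrays (background 16.7%), and no gene of the 9 had both above them (8.77%). The 2 comparisons with control share the 3 control arrays, so their values are only set side by side here. The smallest gaps between the treated groups were those of TNFAIP3 (2.12 in high and 2.14 in low), NFKBIZ (0.40 and 0.33) and RELB (0.63 and 0.72). For NFKBIZ the interval of high minus low was -0.31 to 0.45 and for RELB -0.60 to 0.40, so differences of up to that size between them remain possible. The widest gaps were those of NFKBIE (0.02 and 0.68), RELA (0.25 and 0.74) and TNIP1 (0.31 and 0.68), with intervals of -1.19 to -0.12, -1.09 to 0.12 and -0.80 to 0.06. NFKBIA (1.18 and 1.42), NFKB1 (0.02 and 0.29) and NFKB2 (0.49 and 0.79) lay between.

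Within groups the 9 genes moved together across arrays, and their lowest values fell on the arrays that stood apart. Low 3 was the lowest of the low arrays in 9 of 9 genes, high 2 was the lower of the high arrays in 9 of 9, and control 3 was the lowest control in 8 of 9. NFKBIZ was the exception, with control 2 lowest. Among the 11055 genes at or above the median gene's level the same arrays were lowest in 84.4%, 79.8% and 58.6%. Deviations from the group means correlated above 0 in all 36 pairs of the 9 genes, with a median r of 0.78 over 8 arrays that share these scaling differences. The same was not computed for pairs of other genes, so this shows nothing particular to the 9. Without control 3, low 3 and high 2, low minus control was 2.12 for TNFAIP3 and 1.33 for NFKBIA. High minus control, with only 1 high array left, was 2.28 and 0.99.

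The profiles nearest to TNFAIP3 over the 8 arrays, among 11046 other genes at or above the median gene's level, were those of GEM, a small GTPase gene (Pearson's r = 0.997), CD55, a complement regulator gene (0.994), and STC1, which encodes the secreted hormone stanniocalcin (0.990). GEM was 2.43 higher in low and 2.23 higher in high than in control on the log2 scale. The nearest to NFKBIA were the AP-1 genes JUND (0.992) and JUNB (0.991), and HMOX1 of heme breakdown (0.991). Among the 9 genes themselves TNFAIP3 was closest to NFKBIA (0.961) and NFKBIZ (0.901) and least like NFKB1 (0.526). These correlations were taken over treated and control arrays together and are given as a description.

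Elsewhere in the pathway most genes did not pass. A list of 7 other genes, grouped with the subunits and IκB proteins, held REL, NFKBIB, NFKBID, BCL3, NFKBIL1, NKIRAS1 and NKIRAS2. Not all of them encode a subunit or an IκB protein. None of the 7 was called in limma. At an unadjusted p under 0.05, 3 were higher in low minus control and 1 lower in high minus control (NFKBID, -0.52). The shares of all genes in those directions were 5.38% and 11.4%. REL, the c-Rel subunit, differed by 0.52 in low minus control (limma, adjusted p = 0.303) and BCL3, a nuclear IκB, by 0.52 (adjusted p = 0.224). The list's median was 0.36 in low minus control and 0.16 in high minus control. Of 15 receptor genes 1 was called, against 3% of all genes in either direction: TLR2, the receptor for bacterial lipoproteins, rose by 0.88 ± 0.18 in low minus control (adjusted p = 0.0250). Its level was 4.39, 4.57 and 4.30 in low arrays against 3.74, 3.70 and 3.19 in controls, and in high arrays it lay within the controls' range, at 3.48 and 3.58. High minus low was -0.89 for TLR2 and did not pass (adjusted p = 0.300).

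Among 28 adaptor, kinase and ubiquitin ligase genes IRAK2, a kinase of interleukin 1 and Toll-like receptor signalling, was the one called, where 3% of all genes were called in either direction. It rose by 1.86 ± 0.32 in low minus control (limma, adjusted p = 0.00982), with 6.80, 6.84 and 6.23 in low arrays against 5.21, 5.09 and 4.005 in controls. High minus control was 1.38 ± 0.35 for IRAK2 (adjusted p = 0.114). The list's medians were -0.00158 and -0.03, against -0.04 and -0.12 over all genes. Of the 28, 10 had an unadjusted p under 0.05 in low minus control. IRAK2, XIAP (0.81), TAB3 (0.59), RIPK2 (0.55) and TRAF6 (0.47) were higher. IRAK3 (-0.91), CHUK (-0.53), UBE2N (-0.52), TIRAP (-0.44) and MAP3K7 (-0.39) were lower. The shares of all genes were 5.38% and 8.77%. In high minus control there were 5, with shares of 3.03% and 11.4%: IRAK2 and RIPK2 higher, and MALT1, TIRAP and TRAF3 lower. Of 14 other brakes on the pathway, none was called in either treated group, with 3 higher at an unadjusted p under 0.05 in low minus control and 1 lower in high minus control (N4BP1, -0.64), where all genes gave 5.38% and 11.4%. The nearest to the threshold were the deubiquitinase gene OTUD7B (0.74) and the mRNA-degrading nuclease gene ZC3H12A (0.71), both at an adjusted p of 0.0758 in low minus control. IRAK3, lower in low minus control (-0.91, not called), was counted with the kinases and is not among these 14.

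Of 30 measured target genes 11 were called higher in low minus control and 4 in high minus control, against 1.19% and 0.425% of all genes. None was called lower, against 1.81% and 0.389%. Differences were above 0 in 20 of the 30 in low minus control and 21 in high minus control, against 42.6% and 32.6% of all genes. The lowest was BCL2L1, at -0.35 and -0.90, neither of which passed. The median over the 30 was 0.25 in both comparisons. The targets with the smallest adjusted p were the chemokine gene CXCL8 (3.14 in low and 3.61 in high), the cyclooxygenase gene PTGS2 (3.26 and 3.54) and the cytokine gene IL1A (2.46 and 3.08). Control means were 2.27 for CXCL8 and 1.87 for IL1A, below the median gene's mean of 2.75, and 4.31 for PTGS2. The differences of CXCL8 and IL1A thus start from low levels. LIF, a cytokine of the interleukin 6 family, rose by 1.26 ± 0.21 in low minus control (limma, adjusted p = 0.00900) and differed by 0.81 ± 0.24 in high minus control (adjusted p = 0.155). The chemokine gene CXCL2 rose by 1.21 ± 0.22 (adjusted p = 0.0138) and 1.39 ± 0.25 (adjusted p = 0.0327). Several of these targets were chosen with earlier results of these arrays known, so their count is no independent evidence.

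**Figure D4:**
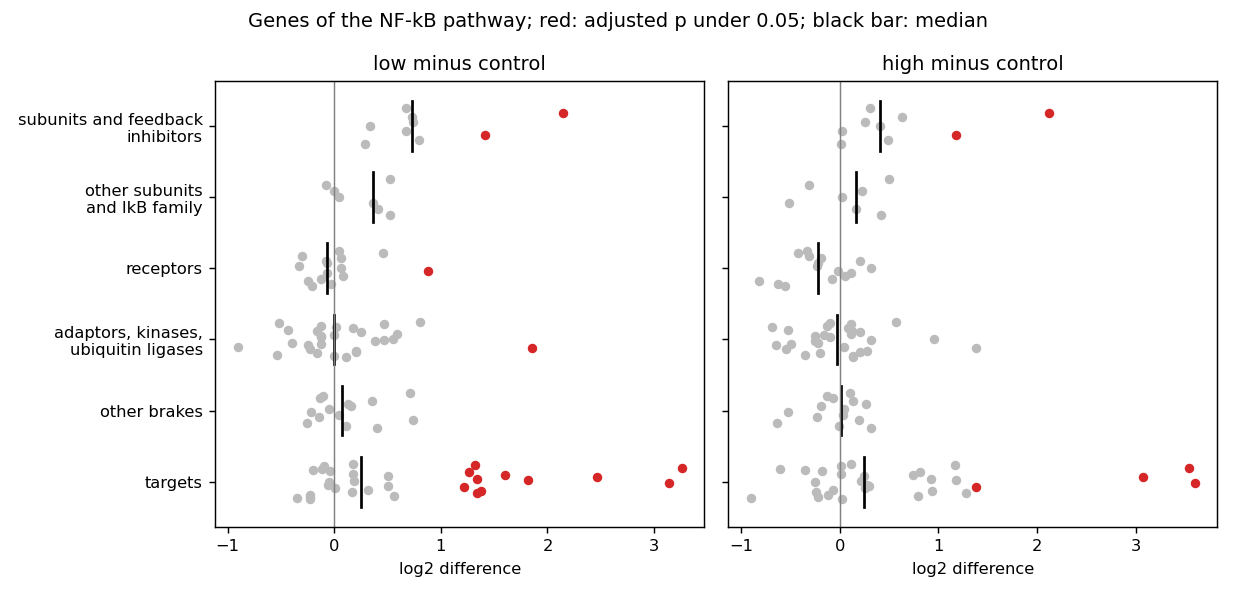
Log2 difference (x axis) of each measured gene of the NF-κB pathway by role, for low minus control and high minus control. Red points have an adjusted p under 0.05 over all genes and black bars are list medians; red points occur among the subunits and feedback inhibitors (2 and 2), receptors (1 and 0), adaptors and kinases (1 and 0) and targets (11 and 4).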

How the data were processed

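Per the submitters' processing notes, the authors used the Transcriptome Analysis Console, and their deposited values, 1 per probe set (53617) and array (8), are log2 levels. How they were summarized and normalized is not stated in the labels. Base 2 was inferred from the values, of which the highest is 12.10. No background measure was used here, and precision is limited by the number of arrays. Names came from the platform annotation: 23558 rows carried 1 symbol, 2155 several, and 27904 were unnamed here. The row with the highest mean was kept for each of 22109 genes. All 8 arrays entered 1 linear model of group means (R 4.3.3, limma 3.58.1: lmFit, contrasts, eBayes), with Benjamini-Hochberg adjustment over all genes and calls under 0.05. The fit was tested on simulated data. Deviations of same-numbered control and low arrays correlated across genes at r = 0.10, 0.15 and 0.20. With unlike numbers, control 1 and low 2 gave 0.12 and control 2 and low 1 gave 0.07. Pairs with 1 array numbered 3 gave -0.18 to -0.11, and control 3 and low 3 are arrays that stood apart. Same-numbered control and high arrays gave 0.09 and -0.05. These values do not settle whether the numbers pair arrays, so the replicate block served only as an alternative. Promoters are RefSeq's (GRCh38.p14).

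The genes described and the pathway lists were chosen with earlier results of these data known. All measured genes of the set are named, with up to 4 called genes of each other list per comparison by the smallest adjusted p, and the 3 profiles nearest to each of the 2 called genes. REL, BCL3, OTUD7B, ZC3H12A, the cell markers and the list genes named for an unadjusted p under 0.05 were named after their values were seen. Alternatives covered scaling, dim genes, rows per gene, arrays fitted, array weights, the prior, the replicate block and left-out arrays.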

Additional observations from a re-analysis of the deposited data

How the results depend on the processing

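The number of the 9 genes called in low minus control, 2, became 6 with quantile normalization, 4 with array medians subtracted, 6 with 75th percentiles subtracted, 7 with array weights, 7 with the replicate block and 5 without control 3, low 3 and high 2. The block added NFKB2, RELA, RELB, NFKBIE and TNIP1 and changed no other call. The number was 2 to 2 when 1 array was left out. TNFAIP3 and NFKBIA were called in low minus control in all 19 alternatives. In high minus control the number, 2, became 1 with only the arrays compared, 3 with quantile normalization (RELB added), 3 without control 3, low 3 and high 2 (NFKBIZ added), and ranged from 0 to 2 when 1 array was left out (0 without high 1). In high minus low it was 0 in all 18 alternatives. Of 495 values of single genes 441 kept direction and side of the threshold, 25 passed it, 8 no longer did, and 21 changed sign, none of them from a called value. For NFKB1, high minus control was -0.089 with array weights and -0.12 with the block. For NFKBIE it was -0.086, -0.16 and, without control 3, low 3 and high 2, -0.073. High minus low of TNFAIP3 was 0.10 (quantile), 0.065 (medians), 0.10 (75th percentiles) and 0.15 without those 3 arrays, and for RELB it was 0.045 (quantile) and 0.025 (75th percentiles). With 1 array left out, high minus control ranged from -0.13 to 0.16 for NFKB1, -0.056 to 0.41 for RELA and -0.13 to 0.17 for NFKBIE, and high minus low from -0.25 to 0.023 for RELB, -0.31 to 0.27 for TNFAIP3 and -0.12 to 0.26 for NFKBIZ. The causes were not tested.

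Counts over all genes moved too. In low minus control, 264 higher and 400 lower became 961 and 1094 with array weights, 483 and 576 with the block, 621 and 557 with quantile normalization, 676 and 602 without the 3 arrays, and 96 and 170 without low 2. In high minus control, 94 and 86 became 235 and 769, 197 and 1031, 327 and 135, 562 and 1001, and 13 and 6 without high 1. The block over control and low arrays alone, chosen after seeing the data, changed no call of the 9 genes.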
